A study of Homo sapiens with 24 samples.

Results

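The 7SK noncoding RNA and 9 proteins that act with RNA polymerase II (Pol II) during elongation were followed in HEK293T cells, a human embryonic kidney line, that differed in SETD2, the enzyme that trimethylates lysine 36 of histone H3. The 10 genes were RN7SK, HEXIM1, LARP7, CDK9, CCNT1, CDK12, SUPT5H, SUPT6H, IWS1 and SSRP1. They were chosen by name from the 58884 genes listed in each of 2 expression tables. All 10 were listed in both tables and all 10 passed the filter on low values in both.

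RNA was sequenced in 10 libraries, 2 in each of 5 groups. Batch 1 held untreated wild-type cells (WT, replicates 1 and 2) and untreated cells labelled as SETD2 knockout (KO, replicates 1 and 2). Batch 2 held untreated KO cells (replicates 2 and 4), KO cells expressing full-length SETD2 (SETD2 FL, replicates 3 and 4) and KO cells expressing the C-terminal segment of residues 1404 to 2564 (SETD2 C, labelled N3, replicates 1 and 2). Both constructs carried a GFP or Halo tag and were driven by a CMV promoter on a transfected plasmid, and they share the KO background. The untreated KO libraries of batch 2 are not labelled as having received an empty vector, so in comparisons with them the construct and the transfection cannot be told apart. SETD2 FL and SETD2 C were both transfected. A legend placed with the paper's quantitative PCR panels gives n = 3 independent biological samples, where these groups hold 2 libraries each. No source used here says whether these replicates came from separate cultures, so p-values measure the spread between these libraries, which may be technical.

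After initiation, Pol II pauses close to the start site with DSIF (SUPT5H with SUPT4H1) and NELF bound. The kinase P-TEFb, made of CDK9 and cyclin T1 (CCNT1), phosphorylates these factors and the C-terminal domain (CTD) of Pol II and releases the pause. A large share of P-TEFb is held inactive by 7SK RNA and HEXIM1, a particle in which LARP7 binds the 3′ end of 7SK and MEPCE caps its 5′ end. CDK12 is a further CTD kinase that acts along the gene body, SUPT6H (SPT6) is a histone chaperone that travels with Pol II, IWS1 binds SPT6 and is known to link SETD2 to elongating Pol II, and SSRP1 with SUPT16H forms the histone chaperone FACT.

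The sequences of the RNA and of the promoter of the pair of genes described at most length below are shown here. RN7SK (ENSG00000283293) is a single-exon small nuclear RNA gene on chromosome 6, GRCh38 positions 52995621 to 52995948 on the plus strand, transcribed by RNA polymerase III without a poly(A) tail. Its transcript in GENCODE 44 has 328 bases, of which 58.2% are G or C. The first 110 bases, at chr6:52995621-52995730, form the end of the RNA that HEXIM1 binds, and they hold all 3 copies of the letters GATC in the transcript, marked by capitals and searched on the RNA strand.
7SK 5′ end: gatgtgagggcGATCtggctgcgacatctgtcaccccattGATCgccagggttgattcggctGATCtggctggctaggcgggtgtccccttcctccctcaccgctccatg
HEXIM1 (ENSG00000186834) is an intronless gene of 1 exon on chromosome 17, positions 45148475 to 45152099 on the plus strand. The 250 bases before its RefSeq start lie at chr17:45148225-45148474 (GRCh38, RefSeq). They are shown because HEXIM1 was the member with the lowest adjusted p between SETD2 C and the untreated KO cells.
HEXIM1 promoter: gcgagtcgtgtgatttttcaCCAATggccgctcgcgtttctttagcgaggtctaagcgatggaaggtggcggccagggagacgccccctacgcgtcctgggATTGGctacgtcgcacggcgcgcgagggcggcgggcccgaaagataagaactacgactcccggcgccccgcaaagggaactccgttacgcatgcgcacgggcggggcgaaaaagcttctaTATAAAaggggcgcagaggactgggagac
The capitals mark TATAAA at position -29 from the start and 2 copies of CCAAT, at -230 on the plus strand and at -149 on the minus strand, where it reads ATTGG. Searched on both strands, TATAAA was in 10.7% and CCAAT in 32.0% of 35116 RefSeq promoter windows of 250 bases. These matches describe letters only.

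The other 8 members are multi-exon protein-coding genes, given here by their GRCh38 positions and the exons of their GENCODE 44 transcript. LARP7 (ENSG00000174720) lies on the plus strand of chromosome 4 from 112637077 to 112657696 with 13 exons. CDK9 (ENSG00000136807) lies on the plus strand of chromosome 9 from 127785679 to 127790792 with 7 exons, and CCNT1 (ENSG00000129315) on the minus strand of chromosome 12 from 48688458 to 48716998 with 9. CDK12 (ENSG00000167258, 14 exons) and SUPT6H (ENSG00000109111, 37 exons) share the plus strand of chromosome 17 with HEXIM1, from 39461486 to 39567559 and from 28662198 to 28702679. SUPT5H (ENSG00000196235) lies on the plus strand of chromosome 19 from 39436156 to 39476670 with 30 exons. IWS1 (ENSG00000163166) lies on the minus strand of chromosome 2 from 127436207 to 127526886 with 14 exons, and SSRP1 (ENSG00000149136) on the minus strand of chromosome 11 from 57325986 to 57335892 with 17.

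The SETD2 transcript itself was checked first. It stood at 12.62 and 14.82 TPM (transcript share per length) in WT and at 16.19 and 16.31 TPM in the libraries labelled KO of batch 1. Transcript level thus does not separate these groups, and "KO" below means the libraries so labelled. The paper states that the KO cells carry disruptions of both SETD2 alleles and lacked its histone mark in western blots. In batch 2 it stood at 11.99 and 12.15 TPM in KO, 439.26 and 421.96 TPM in SETD2 FL, and 1329.05 and 1264.32 TPM in SETD2 C. The SETD2 TPM was thus higher in the SETD2 C than in the SETD2 FL libraries, and dose and construct cannot be told apart. The paper reports no significant difference in mRNA level between the constructs in its RNA-seq. From microscopy and western blots it reports a markedly higher protein level of SETD2 C than of SETD2 FL. SETD2 C covers only part of the SETD2 transcript, so TPM, a share per length, may not compare the constructs alike. Mitochondrially encoded genes took 11.99 to 23.18% of TPM in batch 1, the highest share in WT replicate 1, and 6.23 to 10.95% in KO and SETD2 FL against 2.93 and 3.37% in SETD2 C. The neurofilament genes NEFM and NEFL, which HEK293 cells are known to express, were present in all libraries, but both rose in SETD2 C. NEFM stood at 125.13 and 120.38 TPM in KO, 111.10 and 126.20 TPM in SETD2 FL, and 288.94 and 340.90 TPM in SETD2 C (log2 fold change 1.20 against KO, adjusted p = 0.0005428 by limma, and 1.27 against SETD2 FL). NEFL stood at 63.58 and 61.34, 55.63 and 61.31, and 156.45 and 167.74 TPM in the same groups (1.22 against KO, adjusted p = 0.0001074 by limma, and 1.33 against SETD2 FL), and in batch 1 it also rose in KO (0.44, adjusted p = 0.0444 by limma). The rises of both in SETD2 C against KO were larger than those of HEXIM1 and RN7SK described below, and their part in those results was not tested. The kidney lineage gene PAX2 stood at 0.99 to 2.21 TPM, and the leukocyte marker PTPRC did not pass 0.02 TPM. To remove differences in composition, TPM were scaled by each library's median ratio before testing. Tests used limma on log2(scaled TPM + 0.5) with Benjamini-Hochberg adjustment over all genes tested. Every fold change below is on the log2(scaled TPM + 0.5) scale, where genes of low level move less than their TPM do. A gene passed the test at an adjusted p of 0.05 or less, and a call also needed a fold change of 2 or more. With 2 libraries a group, an exact two-sided permutation test cannot go below 0.333, so no such test of a single gene is given.

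In the TPM of these libraries, SSRP1 stood highest of the 10 in every group. The labels give poly(A) enrichment and RN7SK has no poly(A) tail, so its place in this order may not reflect its level in the cells. In batch 2 KO, SSRP1 stood at 271.38 and 255.22 TPM. SUPT5H (63.57 and 61.40 TPM) and LARP7 (58.47 and 50.71 TPM) came next. CDK9 (29.98 and 28.49 TPM), IWS1 (27.83 and 27.44 TPM), SUPT6H (27.07 and 24.82 TPM) and RN7SK (26.70 and 21.47 TPM) followed, and of these neighbours only SUPT6H and RN7SK overlapped. Lower still were CCNT1 (17.59 and 18.24 TPM) and CDK12 (18.32 and 15.51 TPM), which also overlapped. HEXIM1 was lowest at 10.70 and 9.53 TPM. In SETD2 C this order differed at its lower end, where HEXIM1 (19.84 and 20.55 TPM) stood above CCNT1 (18.03 and 18.83 TPM) and CDK12 (16.88 and 15.99 TPM), and RN7SK (55.11 and 39.13 TPM) stood above CDK9, IWS1 and SUPT6H. The 2 batches were processed apart and were not tested against each other. Side by side, KO cells had 6.77 and 6.37 TPM of RN7SK in batch 1 and 26.70 and 21.47 TPM in batch 2, whereas SSRP1 stood at 700.56 and 760.92 TPM in batch 1 KO.

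**Figure D1:**
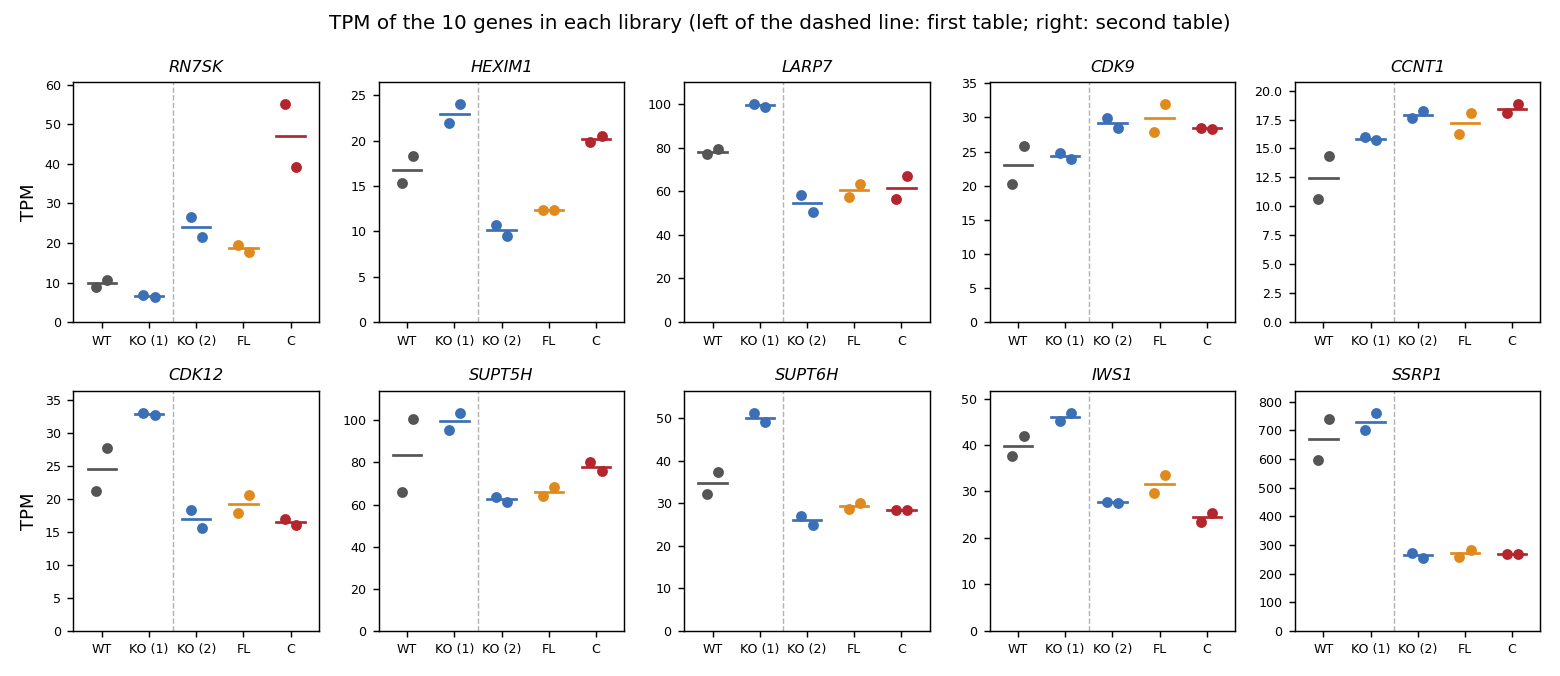
TPM of each of the 10 genes in each library; points are libraries, horizontal lines are group means, and the dashed line separates batch 1 (WT, KO) from batch 2 (KO, SETD2 FL, SETD2 C). HEXIM1 and RN7SK stand higher in both SETD2 C libraries than in the other libraries of batch 2, and IWS1 stands lower there.

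By the size of the log2 fold change, the largest differences among the 10 genes lay within the 7SK particle. By adjusted p, IWS1 came first for SETD2 C against SETD2 FL (0.00327 by limma, with 0.00359 for HEXIM1 and 0.00489 for RN7SK). RN7SK and HEXIM1 both stood above KO and SETD2 FL in the SETD2 C libraries, whereas LARP7, the protein that stabilises 7SK, passed no test. In the comparison of SETD2 C with KO, 2 of the 10 genes rose (HEXIM1 and RN7SK) and 1 fell (IWS1), in a background where 17.5% of 17579 tested genes rose and 12.9% fell. Against SETD2 FL, 2 rose (the same 2) and 2 fell (IWS1 and CDK12), where 17.8% of all tested genes rose and 14.4% fell. These shares of the members are near the background, so the counts themselves are no result about the 10 genes, and the values of the single genes are what follows.

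HEXIM1, the protein inhibitor of P-TEFb, stood at 10.70 and 9.53 TPM in KO, 12.35 and 12.34 TPM in SETD2 FL, and 19.84 and 20.55 TPM in SETD2 C. The 3 groups did not overlap, and both SETD2 C libraries were far above the other 4. HEXIM1 in SETD2 C differed from KO by 0.82 on the log2 scale (SE 0.08, 95% interval 0.636 to 1.003, fold 1.76, adjusted p = 0.00141 by limma with Benjamini-Hochberg adjustment), below the fold change of 2. Against SETD2 FL it was 0.56 (SE 0.08, 95% interval 0.38 to 0.74, fold 1.47, adjusted p = 0.00359 by limma with the same adjustment). Both comparisons passed under all 14 alternative settings and left-out libraries. For SETD2 FL against KO the log2 fold change of HEXIM1 was 0.26 (SE 0.08, 95% interval 0.08 to 0.44), which did not pass (adjusted p = 0.253 by limma).

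RN7SK stood at 26.70 and 21.47 TPM in KO, 19.46 and 17.79 TPM in SETD2 FL, and 55.11 and 39.13 TPM in SETD2 C. Both SETD2 C libraries were above the other 4, but they differed from each other by more than the libraries of any other group of batch 2 (SD 11.3 TPM, n = 2). Against SETD2 FL the log2 fold change of RN7SK was 1.17 (SE 0.18, 95% interval 0.74 to 1.59, fold 2.24, adjusted p = 0.00489 by limma), the only call among the 10 genes in any comparison, where 3.47% of all tested genes were called higher. It passed the adjusted p under all 13 alternatives that gave a value (log2 fold change 0.91 to 1.42), but without SETD2 C replicate 1 it was 0.91, below the fold change of 2, and so no call. Against KO it was 0.79 (SE 0.18, 95% interval 0.37 to 1.22, fold 1.73, adjusted p = 0.019 by limma). That difference did not pass without KO replicate 4 (0.64, adjusted p = 0.0882), without SETD2 C replicate 1 (0.54, adjusted p = 0.053) or with no filter on low values (adjusted p = 0.0643), over a range of 0.54 to 1.04 for all 13 alternatives in limma.

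Because the labels give both ribosomal RNA depletion and poly(A) enrichment before library preparation, and 7SK has no poly(A) tail, other short noncoding RNAs without a tail were set beside it. RN7SL1, an RNA of the signal recognition particle, stood at 448.76 and 307.28 TPM in KO, 342.78 and 480.89 TPM in SETD2 FL, and 747.65 and 335.82 TPM in SETD2 C. RN7SL2, its near-identical copy, with which it shares reads, stood at 843.40 and 324.87 TPM in SETD2 C. SETD2 C replicate 1, the library with the higher RN7SK, thus also had the highest RN7SL1 and RN7SL2 of the batch, while replicate 2 lay within the range of the other groups for both.

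The small nucleolar RNA SNORD3A (U3) stood at 16.17 and 13.21 TPM in KO, 20.05 and 15.05 TPM in SETD2 FL, and 24.69 and 26.30 TPM in SETD2 C, with both SETD2 C libraries highest. Its log2 fold change between SETD2 C and KO was 0.63 (SE 0.16, adjusted p = 0.0276 by limma), and against SETD2 FL it was 0.41 (adjusted p = 0.0942 by limma). SNORD3A was the only 1 of the 8 tested rows of this list to pass for SETD2 C against KO, and none passed in the other comparisons. With a library left out, SNORD3A passed against KO in 1 of 4 fits. The median log2 fold change of the list was 0.07 for SETD2 C against KO and 0.24 for SETD2 C against SETD2 FL, where the median of all tested genes was 0.05 for both. RN7SL1 differed between SETD2 C and KO by 0.28 on the log2 scale (SE 0.38, adjusted p = 0.604 by limma). RMRP has 2 rows in the tables, and VTRNA1-1 and RNY3 were listed at 0 in every library. Whether carry-over of RNA without a tail had a part in the RN7SK values was not tested.

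**Figure D2:**
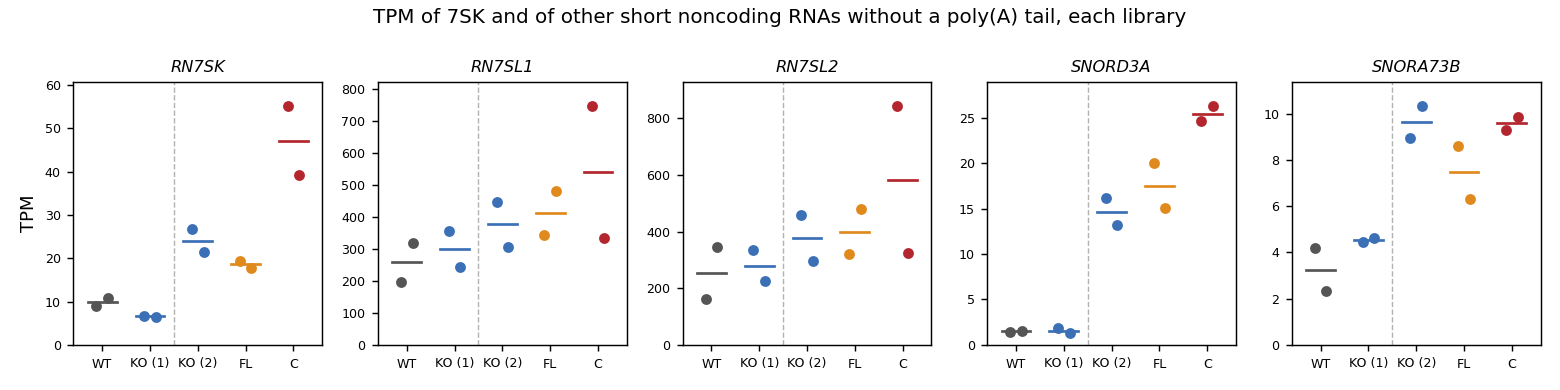
TPM of RN7SK and of RN7SL1, RN7SL2, SNORD3A and SNORA73B in each library; points are libraries and lines are group means, with batch 1 left and batch 2 right of the dashed line. Both SETD2 C libraries are highest for RN7SK and SNORD3A, whereas for RN7SL1 and RN7SL2 only SETD2 C replicate 1 is.

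RN7SK also has many near copies in the genome that could share its reads. The tables list 293 RN7SK pseudogenes, of which 9 to 15 were above 0 in a library, with a summed level of 2.25 to 6.84 TPM. None had a mean of 1 TPM or more in either batch. Taken within each library, the ratio of RN7SK to LARP7 TPM was 0.457 and 0.423 in KO, 0.34 and 0.28 in SETD2 FL, and 0.975 and 0.585 in SETD2 C. The groups did not overlap in this ratio, which needs no scaling between libraries. The ratio of RN7SK to RN7SL1 was 0.0595 and 0.0699 in KO, 0.0568 and 0.037 in SETD2 FL, and 0.0737 and 0.117 in SETD2 C. Both SETD2 C libraries were highest, but SETD2 C replicate 1 (0.0737) lay close to KO replicate 4 (0.0699).

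LARP7 stood at 58.47 and 50.71 TPM in KO, 57.23 and 63.47 TPM in SETD2 FL, and 56.54 and 66.88 TPM in SETD2 C, with all 3 groups overlapping. Its log2 fold change was 0.02 for SETD2 C against KO (adjusted p = 0.871 by limma) and -0.10 for SETD2 C against SETD2 FL (adjusted p = 0.446 by limma). MEPCE, which caps 7SK, stood at 17.88 and 15.57 TPM in KO, 20.66 and 23.06 TPM in SETD2 FL, and 16.10 and 14.78 TPM in SETD2 C. MEPCE fell between SETD2 FL and SETD2 C by 0.62 on the log2 scale (SE 0.09, adjusted p = 0.00417 by limma), so the members of the particle did not move in 1 direction. HEXIM2, the paralog of HEXIM1, stood between 4.77 and 7.08 TPM in batch 2, and its difference between SETD2 C and KO was 0.11 (log2) (SE 0.14, adjusted p = 0.585 by limma). The ratio of HEXIM1 to HEXIM2 TPM was 1.75 and 2.0 in KO, 2.08 and 1.92 in SETD2 FL, and 2.8 and 3.44 in SETD2 C.

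The P-TEFb subunits passed no test in any of the 4 comparisons. CDK9, the kinase, stood at 29.98 and 28.49 TPM in KO, 27.85 and 31.95 TPM in SETD2 FL, and 28.48 and 28.34 TPM in SETD2 C. On unscaled TPM the SETD2 C libraries thus lay just under those of KO and within the range of SETD2 FL. After scaling, CDK9 in SETD2 C (26.8 and 26.4) stood below both KO (31.0 and 29.8) and SETD2 FL (29.2 and 32.2). Its log2 fold change was -0.19 for SETD2 C against KO (adjusted p = 0.0745 by limma) and -0.20 against SETD2 FL (adjusted p = 0.0607 by limma). CCNT1, the cyclin, stood between 16.29 and 18.83 TPM in all 6 libraries of batch 2. Its log2 difference of -0.11 for SETD2 C against KO (adjusted p = 0.263 by limma) was 0.04 on unscaled TPM.

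Set against its target kinase within each library, HEXIM1 was at 0.357 and 0.335 of the CDK9 TPM in KO, at 0.443 and 0.386 in SETD2 FL, and at 0.697 and 0.725 in SETD2 C. Both SETD2 C libraries were above all others in batch 2. In batch 1 the same ratio was 0.756 and 0.705 in WT and 0.885 and 1.01 in KO, so the level of this ratio also differed between the batches' KO libraries, which were not tested against each other. These are ratios of transcripts and say nothing of protein.

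CDK12, which keeps long genes transcribed through its CTD kinase activity, stood at 18.32 and 15.51 TPM in KO, 17.88 and 20.54 TPM in SETD2 FL, and 16.88 and 15.99 TPM in SETD2 C. On unscaled TPM the SETD2 FL libraries were above the SETD2 C libraries, and KO overlapped both. After scaling, KO (19.0 and 16.2) still overlapped SETD2 FL (18.7 and 20.7) but stood above SETD2 C (15.9 and 14.9). The fall between SETD2 FL and SETD2 C was -0.35 on the log2 scale (SE 0.10, 95% interval -0.58 to -0.12, adjusted p = 0.0354 by limma). It held under 7 of 14 alternatives only, and each left-out library, unscaled TPM (-0.22, adjusted p = 0.149), no low filter or no trend ended it in limma.

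IWS1 was the member that fell in SETD2 C against both other groups. It stood at 27.83 and 27.44 TPM in KO, 29.75 and 33.57 TPM in SETD2 FL, and 23.50 and 25.34 TPM in SETD2 C, and the groups did not overlap. Against SETD2 FL its log2 fold change was -0.50 (SE 0.07, 95% interval -0.66 to -0.34, fold 0.709, adjusted p = 0.00327 by limma), which passed under all 14 alternatives (-0.56 to -0.37). Against KO it was -0.32 (SE 0.07, 95% interval -0.48 to -0.17, fold 0.799, adjusted p = 0.0143 by limma). This did not pass on unscaled TPM (-0.18, adjusted p = 0.126) or without KO replicate 2 (0.0612), KO replicate 4 (0.0589) or SETD2 C replicate 1 (0.0672), all adjusted p by limma.

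SUPT6H, the partner of IWS1, stood at 27.07 and 24.82 TPM in KO, 28.57 and 29.96 TPM in SETD2 FL, and 28.52 and 28.50 TPM in SETD2 C. Its log2 fold change was -0.01 for SETD2 C against KO (adjusted p = 0.892 by limma) and -0.17 against SETD2 FL (adjusted p = 0.0754 by limma). The ratio of IWS1 to SUPT6H TPM was 1.03 and 1.11 in KO, 1.04 and 1.12 in SETD2 FL, and 0.824 and 0.889 in SETD2 C, lowest in both SETD2 C libraries without any scaling.

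SUPT5H, the large DSIF subunit, stood at 63.57 and 61.40 TPM in KO, 63.85 and 68.50 TPM in SETD2 FL, and 80.02 and 75.85 TPM in SETD2 C. The SETD2 C libraries were highest, but after scaling its log2 fold change against KO was 0.17 (SE 0.05, adjusted p = 0.0564 by limma), and against SETD2 FL 0.10 (adjusted p = 0.182 by limma). On unscaled TPM it passed in both comparisons (0.32, adjusted p = 0.00943, and 0.23, adjusted p = 0.0264, by limma). On unscaled TPM all tested genes had a median difference of 0.18 (log2) for SETD2 C against KO and 0.17 against SETD2 FL. SSRP1, a FACT subunit, stood between 255.22 and 283.79 TPM in the 6 libraries, and its log2 fold changes for SETD2 C against KO (-0.12, adjusted p = 0.119 by limma) and against SETD2 FL (-0.14, adjusted p = 0.0742 by limma) did not pass.

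**Figure D3:**
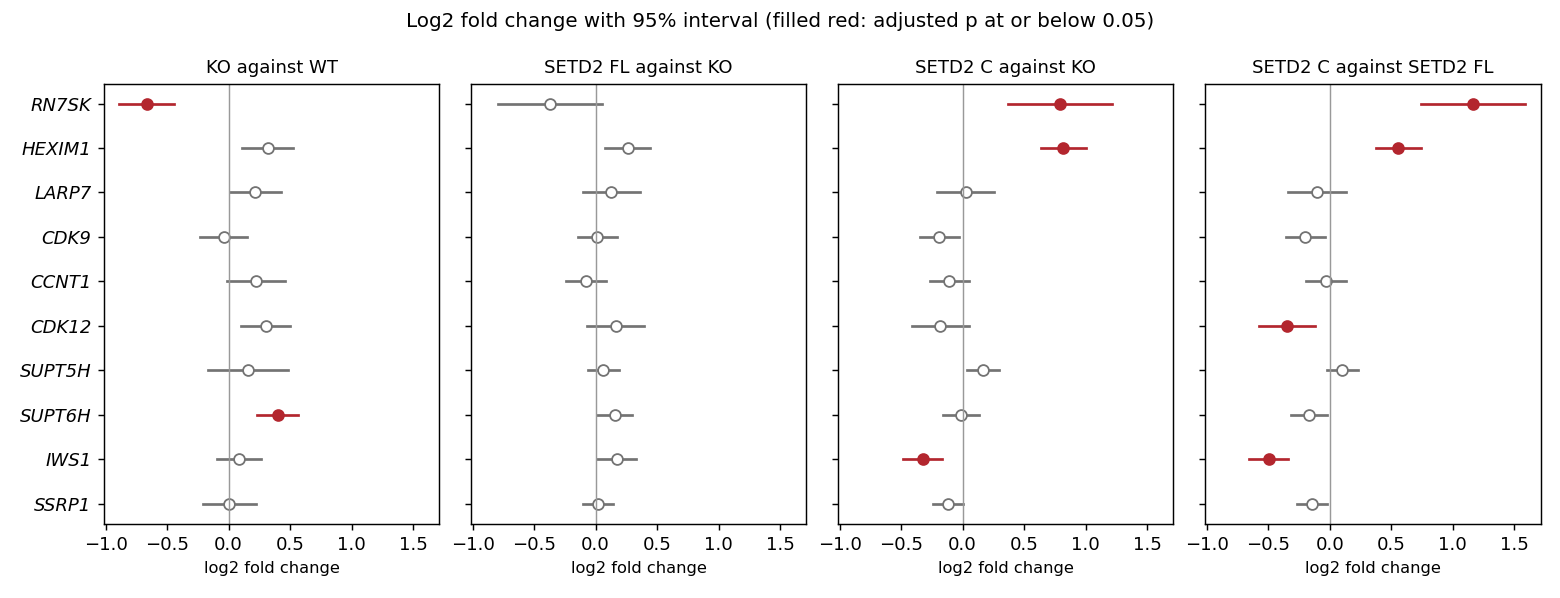
Log2 fold change of each of the 10 genes in the 4 comparisons, on scaled TPM with a pseudocount of 0.5; points are limma estimates and bars 95% intervals, and red marks an adjusted p of 0.05 or less. For SETD2 C against SETD2 FL the values run from -0.50 (IWS1) to 1.17 (RN7SK).

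Full-length SETD2 moved none of the 10 genes past the test against KO. The limma fit passed 0 of 10, where 0.0341% of all tested genes were higher and 0.00569% lower. At an unadjusted p under 0.05, 3 members would pass (HEXIM1, SUPT6H and IWS1), as would 2496 of the 17579 tested genes. RN7SK had the log2 fold change farthest from 0, -0.37 (SE 0.18, 95% interval -0.80 to 0.05, adjusted p = 0.395 by limma), and those of the other 9 lay between -0.08 (CCNT1) and 0.26 (HEXIM1).

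In batch 1, which compared KO with WT cells, 1 member fell (RN7SK) and 1 rose (SUPT6H), where 1.84% of 16456 tested genes fell and 0.766% rose. Each rested on 2 libraries a group and was lost when any 1 of the 4 libraries was left out. RN7SK stood at 8.96 and 10.73 TPM in WT and at 6.77 and 6.37 TPM in KO, lower in both KO libraries. Its log2 fold change was -0.67 (SE 0.09, 95% interval -0.89 to -0.44, fold 0.63, adjusted p = 0.0296 by limma), and it missed the threshold on unscaled TPM (-0.54, adjusted p = 0.101). RN7SL1 stood at 196.86 and 320.51 TPM in WT and at 356.74 and 243.00 TPM in KO, so the groups overlapped. RMRP (ENSG00000277027), the RNA of RNase MRP and also without a tail, stood at 3.65 and 7.13 TPM in WT and at 1.13 and 2.07 TPM in KO, lower in both KO libraries. Its log2 fold change of -1.56 (SE 0.30, adjusted p = 0.06668 by limma) was farther from 0 than that of RN7SK but did not pass, and neither did any of the other tested noncoding RNAs of the 6 in the list. The part of such RNAs in the RN7SK values was not tested.

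SUPT6H stood at 32.12 and 37.35 TPM in WT and at 51.23 and 48.99 TPM in KO, higher in both KO libraries. Its log2 fold change was 0.40 (SE 0.07, 95% interval 0.24 to 0.56, fold 1.32, adjusted p = 0.047 by limma), and under unscaled TPM or quantile normalization the adjusted p was 0.0599 and 0.0559. HEXIM1 stood at 15.35 and 18.25 TPM in WT and at 21.95 and 24.02 TPM in KO. Its groups did not overlap, but its log2 fold change of 0.32 (SE 0.08, 95% interval 0.11 to 0.53) did not pass (adjusted p = 0.116 by limma).

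CDK12 (0.30, adjusted p = 0.116), CCNT1 (0.22, adjusted p = 0.238) and LARP7 (0.22, adjusted p = 0.209) had positive log2 fold changes that did not pass in limma. SUPT5H (0.16), IWS1 (0.08), SSRP1 (0.01) and CDK9 (-0.04) were closer to 0, with adjusted p of 0.518 to 0.975 by limma. WT replicate 1, the library with the highest mitochondrial share, had the lowest unscaled TPM of 9 of the 10 genes in batch 1. RN7SK was the exception. After scaling, WT replicate 1 was lowest only for HEXIM1, CCNT1, CDK12 and SUPT5H. The part of this library in the log2 fold changes was not tested beyond leaving it out.

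The wider machinery was read from 9 lists that hold 67 genes, the 10 members included, all of them tested. For SETD2 C against KO, 8 of the 67 rose and 16 fell, where 17.5% and 12.9% of all tested genes did. For SETD2 C against SETD2 FL 8 rose and 18 fell, where 17.8% and 14.4% of all tested genes did. This balance depended on scaling. On unscaled TPM 18 rose and 5 fell against KO, and 18 rose and 9 fell against SETD2 FL, whereas quantile normalization gave 12 and 13, and 10 and 14. The same held for all tested genes, since 57.6% of those past the test against KO were higher after scaling, 83.6% without it and 47.3% with quantile normalization. Against SETD2 FL the shares were 55.2, 78.0 and 46.7%. For KO against WT, 2 of 67 rose (SUPT6H and ELOA, an elongin subunit, at 0.43, adjusted p = 0.0486 by limma, lost with any library left out) and RN7SK fell. There 29.4% of the genes past the test were higher after scaling, 47.2% without it and 30.7% with quantile normalization. For SETD2 FL against KO none of the 67 passed by limma.

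Among the 6 CTD phosphatases and termination factors, 4 fell and 1 rose in both comparisons of SETD2 C, and the list's median log2 fold change was -0.38 against KO and -0.35 against SETD2 FL, where the median of all tested genes was 0.05 in both. Against KO 17.5% of all tested genes rose and 12.9% fell, and against SETD2 FL 17.8% and 14.4%, which are also the shares to set beside the counts of the lists that follow. The gene that rose was PCF11, a cleavage and termination factor, at 22.03 and 22.35 TPM in KO, 26.91 and 25.42 TPM in SETD2 FL, and 50.47 and 56.07 TPM in SETD2 C. Its log2 fold change against KO was 1.09 (SE 0.07, adjusted p = 0.000517 by limma), larger than that of any of the 10 members in that comparison. CTDP1, a phosphatase that reverses CTD phosphorylation, stood at 2.83 and 2.51 TPM in KO, 3.33 and 3.37 TPM in SETD2 FL, and 1.85 and 2.21 TPM in SETD2 C. Its log2 fold changes were -0.45 against KO (adjusted p = 0.0392 by limma) and -0.72 against SETD2 FL (adjusted p = 0.00796 by limma). The fall of CTDP1 against KO was lost with any library left out, while that against SETD2 FL and both rises of PCF11 passed in all 4 such fits.

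Among the 12 Pol II subunits, 5 fell and 1 rose against KO (12.9% and 17.5% of all tested genes), and as many against SETD2 FL (14.4% and 17.8%). With a library left out, 2 to 6 of them passed against KO and 1 to 5 against SETD2 FL. The large catalytic subunit POLR2A rose from 54.18 and 51.21 TPM in KO to 83.04 and 77.90 TPM in SETD2 C (log2 fold change 0.46, adjusted p = 0.00307 by limma). Of the small subunits, POLR2E fell by 0.34 on the log2 scale against KO and POLR2L fell by 0.38 against SETD2 FL (adjusted p = 0.011 and 0.00464 by limma). POLR2A and POLR2L passed in all 4 fits with a library left out, and POLR2E in 2 of 4. In the super elongation complex, which carries P-TEFb to genes, 2 of 9 rose and 1 fell in each of these comparisons. AFF4, its scaffold, rose by 0.38 and MLLT1 fell by 0.46 on the log2 scale against KO (adjusted p = 0.012 and 0.00427 by limma), and with a library left out AFF4 passed in 2 of 4 fits and MLLT1 in 4 of 4.

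In the list of SPT6, IWS1 and FACT, 2 of 4 genes fell and none rose in both comparisons (12.9% and 14.4% of all tested genes fell), namely IWS1 and SUPT16H, the partner of SSRP1 (log2 fold change -0.23 against KO, adjusted p = 0.0395 by limma). SUPT16H did not pass against KO with any library left out and passed against SETD2 FL in 1 of 4 such fits. Of the 6 PAF1 complex genes, which also travel with Pol II, WDR61 fell by 0.54 on the log2 scale against KO (adjusted p = 0.00278 by limma), also with any library left out, and none rose. NELFB and NELFE, subunits of the pausing factor NELF, fell by 0.24 and 0.18 against KO (adjusted p = 0.0284 and 0.0265 by limma). None of the 6 DSIF and NELF genes rose there. Against SETD2 FL none of the 6 fell, and NELFCD, also a NELF subunit, rose by 0.23 on the log2 scale (adjusted p = 0.0146 by limma). Neither NELFB nor NELFE passed with any library left out. Among 10 P-TEFb and CTD kinase genes, MNAT1 rose by 0.27 and CDK7 fell by 0.20 on the log2 scale against KO, both parts of the kinase module of TFIIH (adjusted p = 0.0312 and 0.0339 by limma). With a library left out MNAT1 passed in 1 of 4 fits and CDK7 in none. Of the 9 elongation and cleavage-rescue factors, ELOA alone passed against KO, rising by 0.26 on the log2 scale (adjusted p = 0.0214 by limma). Against SETD2 FL, TCEA1 rose by 0.37 and GTF2F2 fell by 0.29 (adjusted p = 0.00628 and 0.0274 by limma). With a library left out, TCEA1 passed in every fit, whereas GTF2F2 and NELFCD against SETD2 FL and ELOA against KO did not. The median log2 fold change of the 10 members was -0.06 against KO and -0.12 against SETD2 FL. That of the 67 genes was -0.01 and -0.06.

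**Figure D4:**
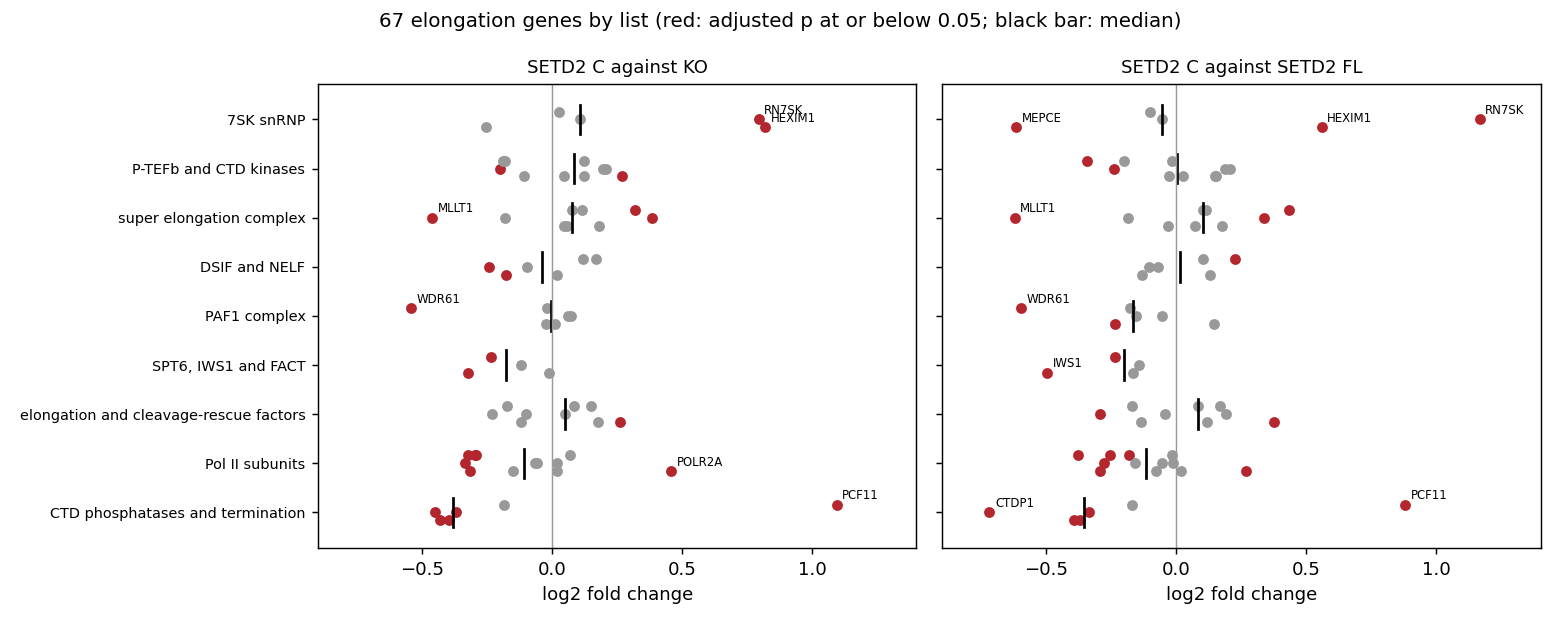
Log2 fold change of the 67 elongation genes by list for SETD2 C against KO (left) and SETD2 C against SETD2 FL (right); points are genes, red marks an adjusted p of 0.05 or less, and black bars are list medians. RN7SK, HEXIM1 and PCF11 lie farthest to the right, and the list of CTD phosphatases and termination factors has its median at -0.38 and -0.35.

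The genes with the most similar pattern were found by the distance between centred log2 scaled TPM over the 6 libraries of batch 2, among 10580 genes with a mean of 5 TPM or more. Nearest to HEXIM1 were DNAJB4 (distance 0.092), ZNF326 (0.107) and ATF7IP2 (0.131). DNAJB4, a heat shock protein of the DnaJ family, stood at 15.61 and 14.94 TPM in KO, 17.80 and 18.62 TPM in SETD2 FL, and 29.89 and 31.00 TPM in SETD2 C. Nearest to RN7SK were HOXC-AS1 (0.283), LINC00173 (0.336) and PAQR6 (0.404), all at larger distances than those of HEXIM1. HOXC-AS1, an antisense RNA of the HOXC cluster, stood at 9.41 and 6.94 TPM in KO, 6.65 and 5.43 TPM in SETD2 FL, and 15.57 and 13.74 TPM in SETD2 C. Whether reads were counted by strand is not given in the sources used here, so its reads may not be separable from those of genes on the other strand. With 6 libraries in 3 groups, these distances describe the pattern only.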

How the data were processed

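Expression was measured by RNA-seq of 10 libraries in 2 batches. Per the labels and methods, total RNA treated with DNaseI went through ribosomal RNA depletion and poly(A) enrichment, and the authors aligned reads with STAR 2.6.1c to hg38 and quantified genes with RSEM 1.3.0 (bcl2fastq 2.18 for base calls). The deposited values are TPM per gene, 1 table a batch, summing to the same total in each library, so depth is unknown and no counting interval is given. The count tables behind the authors' tests were not used here.

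TPM were scaled by median ratios over genes of at least 1 TPM in every library of a table. Genes of all types with at least 0.5 TPM in at least 2 libraries were tested (RN7SK is neither protein-coding nor a lncRNA) with limma 3.58.1 in R 4.3.3 (eBayes with trend) on log2(scaled TPM + 0.5), 1 fit a table, without blocks. A call needed a fold change of 2 and a Benjamini-Hochberg adjusted p of 0.05. Scripts were tested on simulated data. Gene types and positions came from GENCODE 44 and promoters from RefSeq, in which 58472 of 58884 gene IDs were matched to the former and RN7SK to no promoter.

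The members and lists were chosen with earlier results of these data known. Besides the members, the rule named SETD2, in each list and comparison the 2 other genes with the largest absolute log2 fold change past the test, and the 3 genes nearest in pattern to RN7SK and to HEXIM1. Genes of the 7SK particle, noncoding RNAs and cell markers named beyond it were chosen to stand beside RN7SK and HEXIM1 or to check the cells. The alternatives were other pseudocounts, filters, scalings, gene types and fits, and each library left out.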

Additional observations from a re-analysis of the deposited data

How the results depend on the processing

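Of 556 alternative values of the members' log2 fold changes, 506 kept their direction and side of the threshold, 28 no longer passed the adjusted p, 3 came to pass it and 19 changed sign, none of which passed in limma. This count is of the adjusted p alone, and the 1 call among the members, RN7SK in SETD2 C against SETD2 FL, fell below a fold change of 2 without SETD2 C replicate 1 (0.91). Calls for KO against WT (219) became 429 by adjusted p alone, 90 with 1 TPM in every library, 30 with no filter and 75 to 209 with a library left out. Of the members, 2 passed there, but 0 with no filter, no scaling or any library left out, and 1 with quantile normalization, with only protein-coding and lncRNA genes, or without trend. The elongation lists had 3 genes past the test there, 0 with no filter, 1 with no scaling, quantile normalization or no trend, and 0 to 1 with a library left out. For SETD2 FL against KO, 6 calls became 15 with no scaling, 13 with protein-coding and lncRNA genes, 16 without trend, 21 with only the compared libraries and 3 to 6 with a library left out. For SETD2 C against KO, 742 calls became 5334 by adjusted p alone, 434 with a pseudocount of 1 and 334 with 1 TPM in every library. With a library left out, 1 to 3 members passed there (3 in all libraries) and 12 to 15 list genes (24). For SETD2 C against SETD2 FL, 696 calls became 5659, 426 and 342 under the same settings, and 26 list genes became 17 without trend and 14 to 21 with a library left out. RN7SK is neither protein-coding nor a lncRNA, so it was not tested in the fits of only those genes and could not pass there. The cause of the other differences was not tested.

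Without scaling the log2 fold change changed sign for CDK9 in KO against WT (0.0852), for CCNT1 (0.0397), SUPT6H (0.1349) and SSRP1 (0.0288) in SETD2 C against KO, and for LARP7 (0.0288) and CCNT1 (0.1005) in SETD2 C against SETD2 FL. With a library left out, KO against WT ran from -0.0992 to 0.0134 for CDK9, -0.03 to 0.3383 for SUPT5H and -0.063 to 0.0798 for SSRP1. SETD2 FL against KO ran from -0.0572 to 0.0813 for CDK9 and -0.0178 to 0.0627 for SSRP1. SETD2 C against KO ran from -0.0884 to 0.1363 for LARP7 and -0.0699 to 0.0402 for SUPT6H. SETD2 C against SETD2 FL ran from -0.2171 to 0.0077 for LARP7 and -0.0748 to 0.0134 for CCNT1.

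In batch 1 the replicate numbers 1 and 2 occur in both groups. The replicate differences of WT and KO correlated at 0.068 over 16456 genes, and nothing in the labels ties equal numbers, so the libraries were taken as unpaired. With a replicate block 221 genes were called in place of 219, and 532 in place of 429 passed by adjusted p alone. In batch 2 no paired analysis was possible because the groups compared share fewer than 2 replicate numbers. Depth is unknown, and 2 libraries a group limit precision.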
